A study of Mus musculus with 8 samples.

Results

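The genes described here encode the nuclear subunits of the mitochondrial respiratory chain and of ATP synthase. They were chosen by symbol, as every probe whose gene symbol begins like a structural subunit of complex I (Ndufa, Ndufb, Ndufc, Ndufs and Ndufv), complex II (Sdha to Sdhd), complex III (Uqcr), complex IV (Cox4 to Cox8) or complex V (Atp5). This rule found 98 probes of 79 genes, among 16593 named genes on the array. Of the 79 genes, 71 passed the filter on dim probes and were tested within a table of 9971 features. The rule uses gene symbols and no measured value.

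The RNA came from mSSC, a stromal line carrying a yellow fluorescent protein that was immortalised from mouse spleen at stage E18.5 and used at passages 2 to 6 (C57BL6/N strain). Stroma was kept for 40 to 48 h with an excess of B cells and was then sorted away from the lymphocytes. The sample records give 20 B cells per stromal cell, whereas the cell numbers in the paper's array methods give a higher ratio. For the 4 leukemic arrays the B cells were primary cells from the spleens of highly leukemic adult Eu-TCL1 mice, in which the TCL1 oncogene is driven in B cells and a disease like chronic lymphocytic leukemia develops. For the 4 control arrays they were primary splenic B cells of age-matched adult mice. Both groups therefore held the same stromal line, which limits the result to this line, and no culture of stroma alone was analysed here. Whether the arrays of a group came from separate co-cultures or donor mice is not given, so the p-values measure the spread between these arrays, which may be technical.

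The respiratory chain passes electrons from NADH (complex I) and succinate (complex II) through ubiquinone to complex III, cytochrome c and complex IV, which reduces oxygen. Complexes I, III and IV pump protons, and complex V uses the proton gradient to make ATP. Most subunits are encoded in the nucleus and imported, while complexes I, III, IV and V also hold subunits made from mitochondrial DNA, which were not analysed here. Nearly all cells, stromal cells included, express this machinery, and many of its nuclear genes have promoter motifs for the factors NRF1, GABPA (NRF2), YY1 and ERRalpha.

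The promoters are shown first, and the rule for choosing these genes used no sequence. Whether the promoter letters bear on the array values was not tested. RefSeq (GRCm38.p6) windows from 250 bases before to 50 bases after the annotated start were matched for 60 of the 71 tested genes, as 65 windows. The windows were searched on both strands for GCGCA, any 1 base and then GCGC (NRF1), and for the letters CCGGAAGT (GABPA), AAGATGGCG (YY1) and TCAAGGTCA (ERRalpha), which did not overlap each other in the windows printed. The NRF1 letters stood in 14 of 65 windows (21.5%), against 4.60% of all 32851 promoter windows and 9.86% of the 9670 windows of tested genes. The YY1 letters stood in 7 windows (10.8%, against 1.40% of all and 2.96% of tested windows). The GABPA letters stood in 5 windows (7.69%), close to the 7.95% of tested windows and above the 3.89% of all windows. The ERRalpha letters stood in 2 windows (3.08%, against 0.423% of all and 0.279% of tested windows). These shares are descriptions of letters in a window, not of bound sites.

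Windows holding the letters of 2 different factors belonged to Atp5h, Atp5g3, Sdhd and Ndufs6, and their 250 bases before the start are printed with the motif letters found there in capitals, 5′ to 3′ along the gene. All 4 genes lie on the minus strand, Atp5h at chr11:115419920-115420169, Atp5g3 at chr2:73911327-73911576, Sdhd at chr9:50603850-50604099 and Ndufs6 at chr13:73328483-73328732. Atp5h, which encodes the d subunit in the stalk of ATP synthase, holds NRF1 and GABPA letters 141 and 39 bases before the start. Atp5g3 encodes the membrane ring subunit c and holds ERRalpha letters 52 bases before the start and NRF1 letters 13 bases after it. Sdhd, a membrane anchor of complex II, holds NRF1 letters 79 bases before and ERRalpha letters 37 bases after the start. Ndufs6, an accessory subunit of complex I, holds NRF1 letters 16 bases before and YY1 letters 34 bases after the start.
Atp5h: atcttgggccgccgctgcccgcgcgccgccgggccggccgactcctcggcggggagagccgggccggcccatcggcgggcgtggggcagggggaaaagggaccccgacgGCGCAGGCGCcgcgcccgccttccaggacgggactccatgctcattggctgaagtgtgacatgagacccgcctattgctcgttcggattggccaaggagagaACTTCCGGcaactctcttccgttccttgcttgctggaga
Atp5g3: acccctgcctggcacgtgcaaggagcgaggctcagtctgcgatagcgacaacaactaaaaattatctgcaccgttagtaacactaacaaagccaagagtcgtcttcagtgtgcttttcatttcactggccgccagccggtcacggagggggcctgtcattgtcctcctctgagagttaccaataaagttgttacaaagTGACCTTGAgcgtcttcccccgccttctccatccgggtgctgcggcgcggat
Sdhd: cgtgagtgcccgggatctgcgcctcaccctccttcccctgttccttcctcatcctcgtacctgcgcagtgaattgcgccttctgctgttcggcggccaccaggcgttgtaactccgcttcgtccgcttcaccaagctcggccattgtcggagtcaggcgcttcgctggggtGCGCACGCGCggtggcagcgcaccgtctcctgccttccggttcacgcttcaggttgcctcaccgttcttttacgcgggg
Ndufs6: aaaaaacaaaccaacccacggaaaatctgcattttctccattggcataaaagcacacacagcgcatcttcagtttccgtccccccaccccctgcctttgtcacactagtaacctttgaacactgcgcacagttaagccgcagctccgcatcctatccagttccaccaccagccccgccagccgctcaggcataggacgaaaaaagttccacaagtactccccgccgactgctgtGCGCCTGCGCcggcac

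Levels are log2 values after background correction and quantile normalization, with 1 probe (the brightest) per gene, and differences are leukemic minus control. A group difference was called by the rank product, a permutation method on fold change ranks with a false discovery threshold of 0.05 in each direction, or by limma at a Benjamini-Hochberg adjusted p of 0.05. Levels of different genes come from different probes and were not ranked against each other.

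Of the 79 genes, 8 were not kept because their probes were not above background (detection p under 0.05) on at least 4 of the 8 arrays. Atp5k, Cox4i2, Cox7b2, Cox8b, Cox8c, Ndufs1 and Uqcrq were detected on 0 arrays. Cox4i2, Cox7b2, Cox8b and Cox8c are isoforms whose expression is restricted to particular tissues such as lung, testis or muscle. Ndufs1, a core iron-sulfur subunit of complex I, and Uqcrq, a small subunit of complex III, belong to every assembled complex, so for these genes the result is that this probe gave no signal above background. Uqcrfs1, the Rieske iron-sulfur protein, was above background on 1 array, control replicate 3, with a signal of 92.0 against 49.7 to 72.6 on the other arrays. Of the 71 tested genes, 70 were detected on all 8 arrays, and Cox6b2, the testis isoform of its subunit, on 4.

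No member was called higher or lower in stroma cultured with leukemic cells. The rank product called 0 of 71 members higher, against 0.291% of all features (29 of 9971), and 0 of 71 lower, against 0% of all features, and the smallest q of a member was 0.798 for higher and 0.879 for lower. limma called 0 members and 0% of all features, with a smallest adjusted p of 0.639. At an unadjusted limma p under 0.05, 1 of 71 members (Ndufv3, higher) was counted, against 7.58% of all features. The 71 differences ran from -0.23 to 0.32 with a median of 0.025, beside a median of 0.0028 over all features. A lower leukemic mean was found for 33 of 71 members, against 49.4% of features. The RNA is of bulk samples, in which fewer cells of a type and less RNA per cell cannot be told apart.

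**Figure D1:**
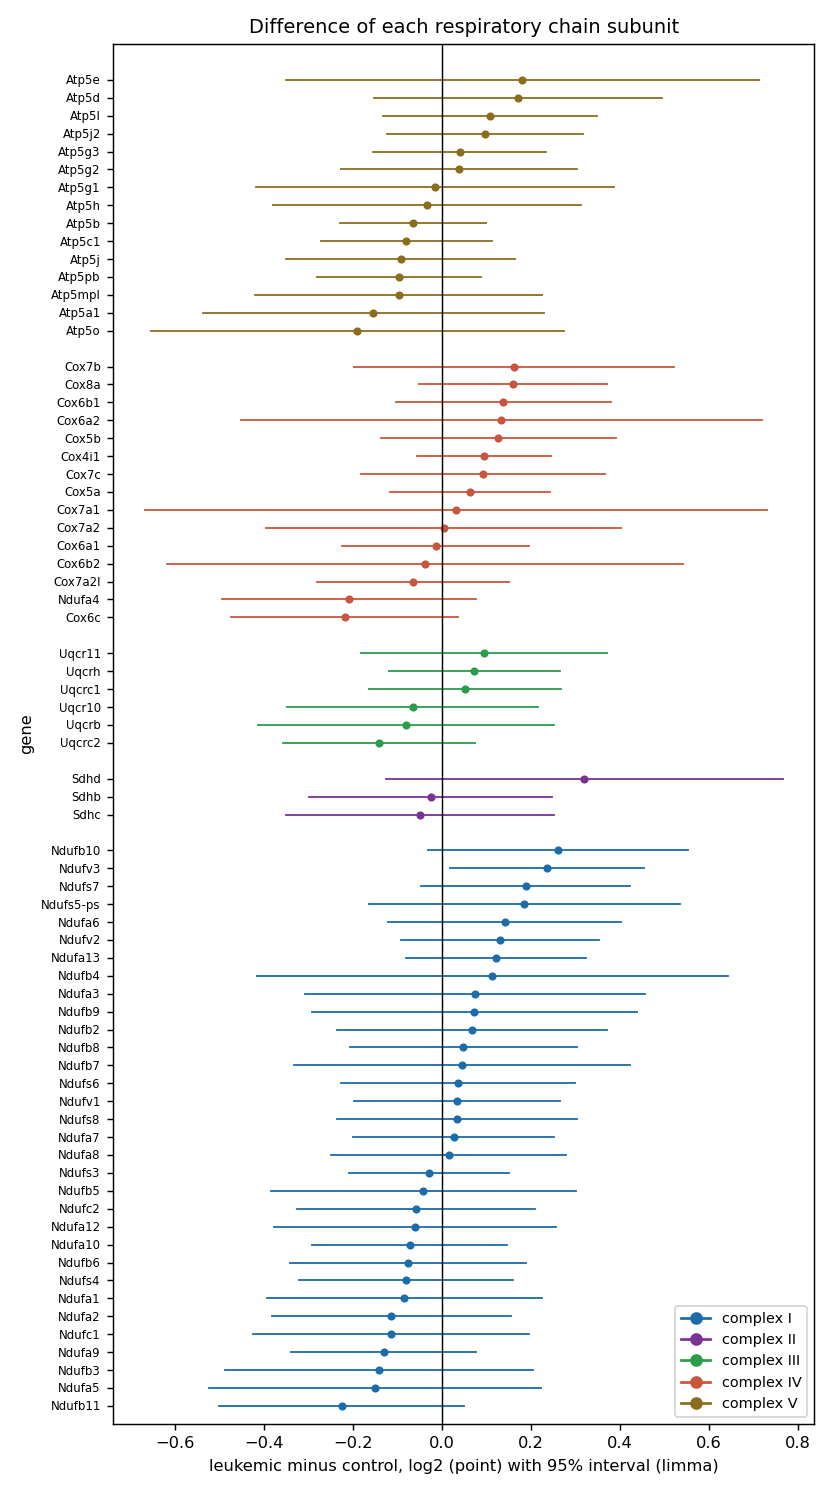
Leukemic minus control difference in log2 (point) with its 95% interval from limma (line) for the 71 tested genes, coloured and grouped by complex and sorted within it. The points lie between -0.23 and 0.32 on both sides of 0, and the interval of Ndufv3 is the one that leaves out 0.

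The differences were small in size. One over 0.25 log2 in size was found for 2 of 71 members (2.82%), Sdhd and Ndufb10, against 23.4% of all features. The count was 0 members and 8.05% of features in the lumi-normalized matrix, and 4 and 23.8% with median centring. When single arrays were left out it was 1 to 7 members. It was 7 members and 28.5% of features without control replicate 3, and 7 and 28.5% without control replicate 4. Without leukemic replicate 4 it was 6 members and 17.9% of features. The median size of the difference was 0.086 for members and 0.13 for all features, and the median SE was 0.12 and 0.15. Members and all features were not matched for signal level, so a smaller difference cannot be read as a trait of the respiratory chain. The 95% interval of the difference lay within 0.5 log2 of 0 for 58 of 71 members, so for these genes a change larger than that is outside the interval. The widest interval was that of Cox7a1 (-0.67 to 0.73), and that of Sdhd reached furthest up (-0.13 to 0.76), so these arrays set no close bound for either gene.

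**Figure D2:**
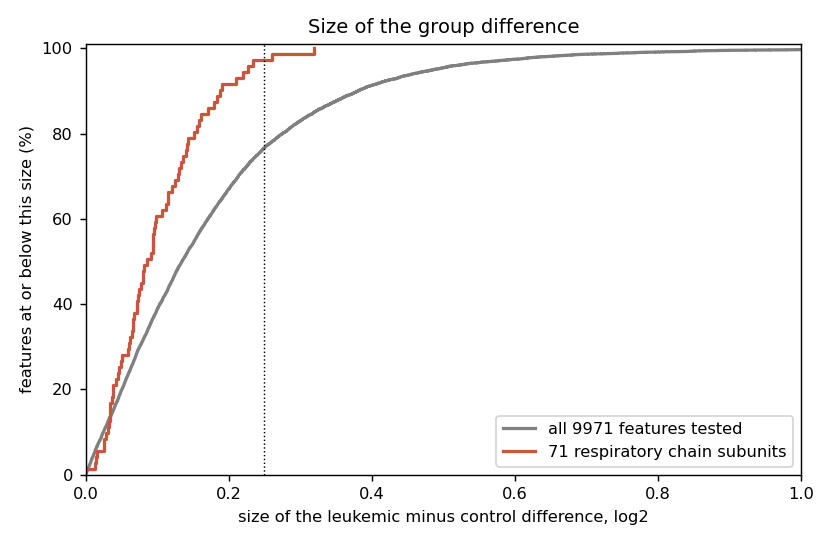
Cumulative share (%) of the 71 respiratory chain subunits (red) and of all 9971 features tested (grey) against the size of the leukemic minus control difference in log2, with a dotted line at 0.25. Of the members, 2.82% lie above 0.25, against 23.4% of all features, which were not matched to the members for signal level.

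Complex I, the NADH dehydrogenase, was represented by 32 genes, 14 of them with a lower leukemic mean (median difference 0.029). Its 5 tested core subunits, which carry the flavin and iron-sulfur centres or line the quinone site, had a median of 0.034, with differences of -0.03 for Ndufs3, 0.03 for Ndufs8, 0.03 for Ndufv1, 0.13 for Ndufv2 and 0.19 for Ndufs7. Ndufv3, an accessory subunit of the NADH-binding module, measured 12.30, 12.02, 12.15 and 12.41 on control replicates 1 to 4 and 12.44, 12.56, 12.41 and 12.41 on leukemic replicates 1 to 4. Its groups touched at control replicate 4 and leukemic replicate 3, and the other control arrays lay below every leukemic array. The difference was 0.23 (SE 0.10, limma adjusted p = 0.639, 2-sided exact permutation p = 0.0571), and its 3 probes gave 0.14 to 0.33.

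Ndufb11, an X-linked accessory subunit of the membrane arm, was the 1 member whose groups did not overlap, all 4 leukemic arrays being lower, against 2.31% of all features in that direction. Its values were 7.56, 7.57, 7.55 and 7.73 on control replicates 1 to 4 and 7.37, 7.31, 7.41 and 7.40 on leukemic replicates 1 to 4. The difference was -0.23 (SE 0.12, limma adjusted p = 0.647). The 2-sided exact permutation p of 0.0286, the smallest that 4 against 4 arrays allow, follows from the lack of overlap and adds no support. The second probe of Ndufb11 gave -0.06, and the brighter probe gave -0.09 in the lumi-normalized matrix. No member lay higher on all leukemic arrays, against 2.21% of all features.

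Ndufb10, a membrane arm subunit of complex I, measured 9.14, 8.99, 8.93 and 9.22 in control arrays and 9.41, 9.48, 9.39 and 9.04 in leukemic arrays. The first 3 leukemic arrays exceeded all controls and leukemic replicate 4 fell among them. The difference was 0.26 (SE 0.13, limma adjusted p = 0.644) and 0.36 without leukemic replicate 4, and it was 0.18 in the lumi-normalized matrix. The lowest differences in complex I after Ndufb11 were -0.15 for Ndufa5 and -0.14 for Ndufb3. One symbol, Ndufs5-ps (difference 0.18), names a pseudogene of Ndufs5, so the transcript its probe measured is uncertain.

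Complex II, succinate dehydrogenase, is the one complex shared with the TCA cycle and is made entirely from nuclear genes. Sdhb, the iron-sulfur subunit, and Sdhc, a membrane anchor, differed by -0.03 (SE 0.12) and -0.05 (SE 0.14), with ranges that overlapped over most of their length, and the flavoprotein Sdha was not analysed here. Sdhd, the other anchor, differed by 0.32 (SE 0.20, limma adjusted p = 0.659, 2-sided exact permutation p = 0.257). It measured 8.07, 8.13, 8.15 and 8.74 on control replicates 1 to 4 and 8.34, 8.47, 8.48 and 9.08 on leukemic replicates 1 to 4. Replicate 4 was the highest array in each group, control replicate 4 lay above 3 of the leukemic arrays, and without leukemic replicate 4 the difference was 0.16. Between same-numbered arrays Sdhd differed by 0.27, 0.34, 0.33 and 0.34, but the labels do not give the numbers as pairs. All 4 such differences were above 0 for 3 of 71 members, against 932 of 9971 features. The Sdhd difference of 0.32 was the highest of the members here. In the lumi-normalized matrix it was 0.18, below those of Ndufv3 (0.24), Ndufs7 (0.21) and Cox8a (0.21) among others.

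Complex III, the cytochrome bc1 complex, had 6 tested subunits, 3 lower and 3 higher (median -0.0078). The differences ran from -0.14 for Uqcrc2, a core protein, to 0.09 for Uqcr11, a small accessory subunit. Uqcrc2 measured 12.88, 13.12, 12.94 and 12.84 in control arrays and 12.59, 12.89, 12.89 and 12.84 in leukemic arrays. Control replicates 2 and 3 lay above every leukemic array, leukemic replicate 1 lay below every control, and the other arrays overlapped. The other core protein, Uqcrc1, differed by 0.05, and the small subunits Uqcrb, Uqcr10 and Uqcrh by -0.08, -0.07 and 0.07.

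Complex IV, cytochrome c oxidase, had 15 tested genes, of which 5 had a lower leukemic mean (median 0.062 here and 0.022 with median centring). Ndufa4, named for complex I, was counted here because it is a subunit of this complex. Cox4i1, the largest nuclear subunit, measured 14.19, 14.14, 14.09 and 14.09 in control arrays and 14.15, 14.24, 14.25 and 14.25 in leukemic arrays. Leukemic replicate 1 was the array that overlapped the controls, and the difference was 0.09 (SE 0.07, limma adjusted p = 0.682), 0.14 in the lumi-normalized matrix and 0.03 with median centring. Cox5a and Cox5b, which surround the mitochondrially encoded core, differed by 0.06 and 0.13. The small X-linked subunit Cox7b differed by 0.16 (limma adjusted p = 0.760), by 0.07 in the lumi-normalized matrix and also without control replicate 3, and by 0.09 without leukemic replicate 4. The lowest differences were those of Cox6c, -0.22 (SE 0.12, limma adjusted p = 0.644), and Ndufa4, -0.21 (SE 0.13, limma adjusted p = 0.656).

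Cox6c measured 12.87, 13.18, 12.60 and 12.76 in control arrays and 12.61, 12.71, 12.62 and 12.60 in leukemic arrays, with the control spread (SD 0.24) several times the leukemic one (SD 0.050). Control replicate 3 lay among the leukemic arrays. Among subunits with tissue isoforms, the widely expressed form and the muscle form were both above background for 6a and 7a. Cox6a1 differed by -0.02 and its heart and muscle isoform Cox6a2 by 0.13 (SDs of 0.59 and 0.21 in control and leukemic arrays). Cox7a2 differed by 0.003, Cox7a2l by -0.07 and the muscle isoform Cox7a1 by 0.03. Cox6b1 and the testis isoform Cox6b2 differed by 0.14 and -0.04. Cox8a, the widely expressed form of its subunit, differed by 0.16 (limma adjusted p = 0.656), by 0.07 with median centring and also without control replicate 3, and by 0.21 in the lumi-normalized matrix.

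Complex V, ATP synthase, had 15 tested genes, of which 9 had a lower leukemic mean (median -0.034). Atp5a1 and Atp5b encode the alpha and beta subunits that form the catalytic head. Atp5a1 measured 10.51, 10.81, 10.22 and 10.69 in control arrays and 10.04, 10.29, 10.50 and 10.78 in leukemic arrays, 2 ranges that overlapped over most of their length (difference -0.16, SE 0.17). Atp5b ranged from 15.12 to 15.35 in control and from 15.13 to 15.24 in leukemic arrays (difference -0.07, and -0.29 with median centring). The 3 genes that encode the same mature subunit c, Atp5g1, Atp5g2 and Atp5g3, differed by -0.02, 0.04 and 0.04. Atp5e and Atp5d, the epsilon and delta subunits of the central stalk, differed by 0.18 and 0.17, Atp5l by 0.11, Atp5o by -0.19 and Atp5mpl by -0.10. Several of these changed when 1 array was left out. Atp5e was -0.03 without control replicate 3 (and 0.07 in the lumi-normalized matrix). Without leukemic replicate 4 Atp5o was 0.02, while the differences of Atp5d and Atp5a1 were larger in size, at 0.33 and -0.28.

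**Figure D3:**
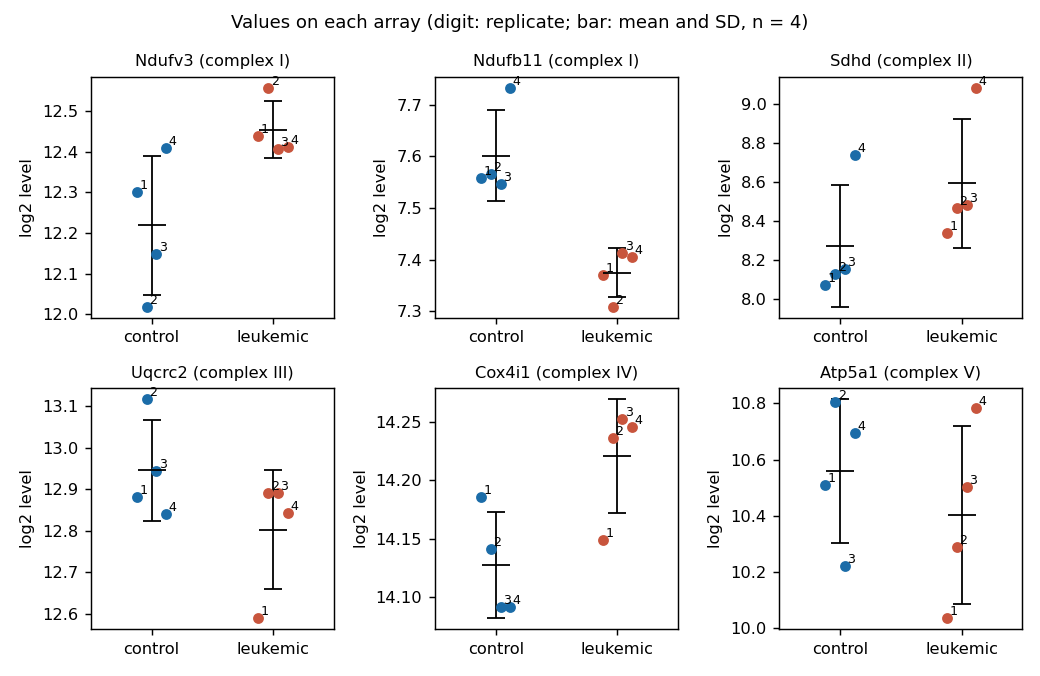
Log2 level on each array for 6 genes (blue, control; red, leukemic; the digit is the replicate number; bars give the mean and SD, n = 4 arrays per group; each panel has its own vertical scale). Only in the Ndufb11 panel are the groups apart, with controls at 7.55 or above and leukemic arrays at 7.41 or below.

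The larger pattern in these genes ran across arrays within each group. For each gene the level on an array was set against its mean over the 8 arrays, and this deviation was averaged over the 71 genes. It was 0.06, -0.01, -0.19 and 0.11 on control replicates 1 to 4 and -0.03, 0.13, 0.08 and -0.16 on leukemic replicates 1 to 4. Over all features the arrays lay between -0.02 and 0.02, but quantile normalization holds them near 0, so that range is no independent comparison. Control replicate 3 and leukemic replicate 4 were low, with 10 and 16 of 71 genes above their own mean, and control replicate 4 and leukemic replicates 2 and 3 were high, with 61, 61 and 60. Leukemic replicate 4 was the lowest array for 31 of 71 genes, against 2903 of 9971 features. It was the highest array for 4 of these genes and for 2517 features, so it was extreme over the whole array. Control replicate 3 was the lowest array for 25 of 71 genes, against 844 of 9971 features. The SD between arrays of a group was 0.13 in each group, against a difference of 0.012 between the group means.

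**Figure D4:**
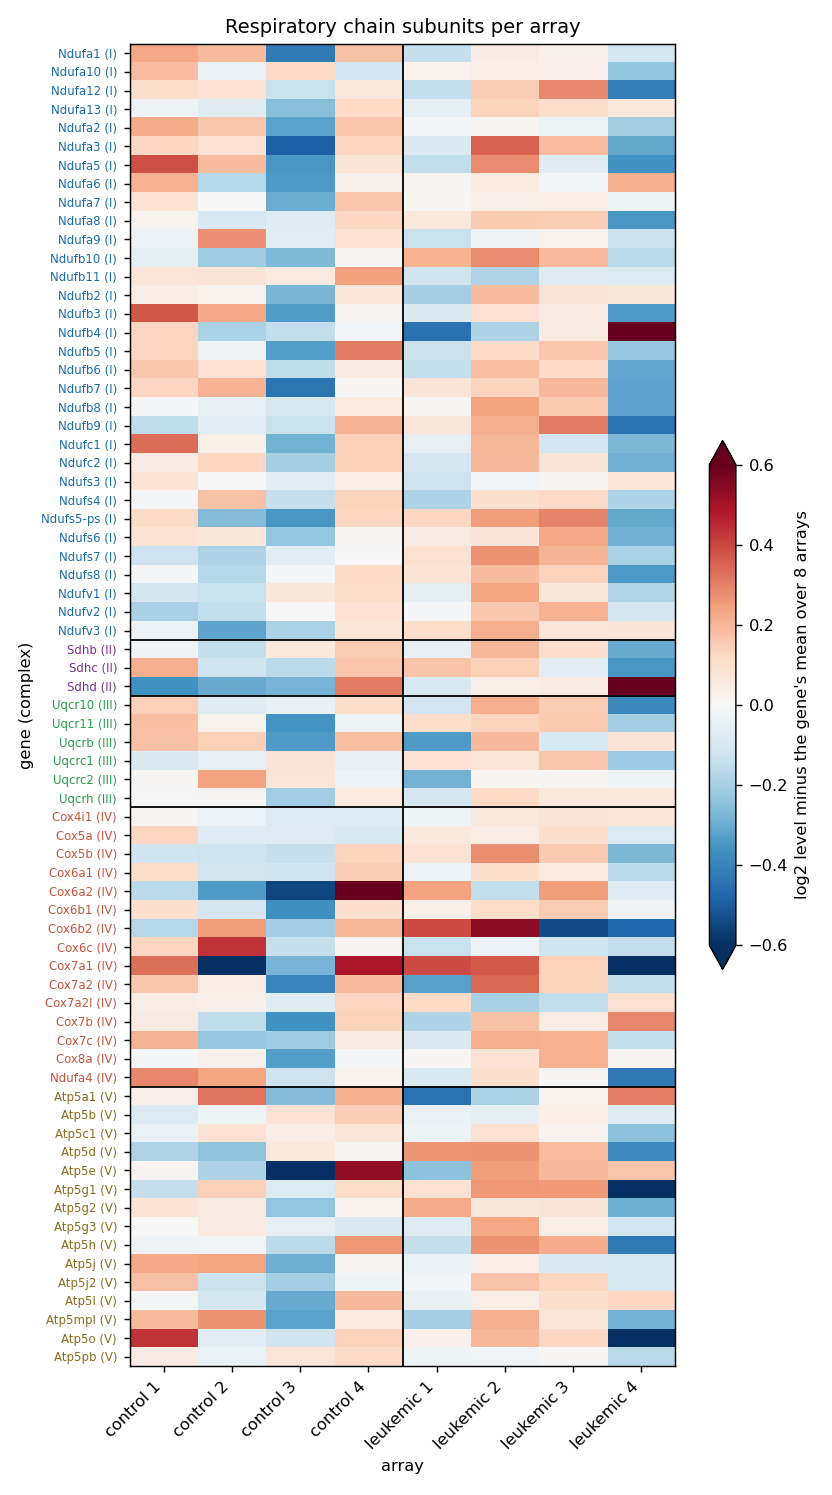
Log2 level of each of the 71 genes on each array minus the gene's mean over the 8 arrays (colour, red above and blue below, saturating at 0.6 log2), grouped by complex with control arrays on the left. Control replicate 3 and leukemic replicate 4 are blue for most genes, 10 and 16 of 71 being above their mean there.

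This was seen in most complexes. On control replicate 3 the mean deviation was -0.19, -0.12, -0.13, -0.23 and -0.16 for complexes I to V, and on leukemic replicate 2 it was 0.13, 0.13, 0.13, 0.14 and 0.12. None of the 15 genes of complex IV was above its mean on control replicate 3. On leukemic replicate 4 complex II stood near its mean (-0.0027, with Sdhd high and Sdhb and Sdhc low), whereas complexes I, III, IV and V lay at -0.16, -0.12, -0.16 and -0.20. Within complex I, the 5 core subunits stayed near their mean on control replicate 3 (-0.01), while the other 27 subunits were at -0.23 and were above their mean for 2 genes. On leukemic replicate 4 both sets were low (-0.15 and -0.16).

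**Figure D5:**
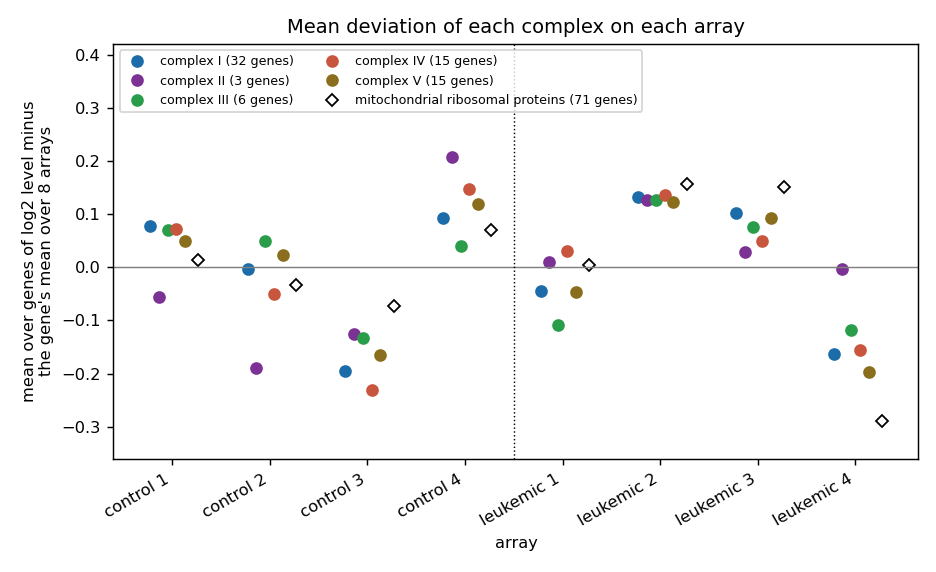
Mean over genes of the log2 level minus the gene's mean over 8 arrays, for each array (horizontal axis) and each complex (coloured points), with 71 mitochondrial ribosomal protein genes for comparison (open diamonds). The complexes lie low together on control replicate 3 and high together on leukemic replicate 2, and on leukemic replicate 4 the diamonds lie lowest, at -0.29.

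Over the 8 arrays, the deviation of a member followed the mean of the other members with a median Pearson r of 0.67, and r was over 0.5 for 49 of 71 members (69.0%). For features that are not members, r with the same mean was 0.047 in the median and over 0.5 for 16.6%. These are descriptions over 8 arrays that share 1 chip and 1 normalization, with no test. The members that followed the rest most closely, chosen after their values were seen, were Ndufa3 (r = 0.96), Ndufb5 (0.94) and Ndufc2 (0.92), all accessory subunits of complex I. The 4 members with r below 0 were Ndufb4 (-0.34), Cox7a2l (-0.26), Sdhd (-0.12) and Uqcrc2 (-0.03), also named after their values were seen. The catalytic subunits Atp5a1 and Atp5b lay near 0, both at 0.03. Genes with and without the NRF1 letters in the promoter window had median deviations of -0.15 and -0.20 on control replicate 3 and -0.25 and -0.16 on leukemic replicate 4. For the other letters few genes stood behind the medians on leukemic replicate 4, which were 0.014 with GABPA letters (5 genes) and -0.19 without, 0.26 with ERRalpha letters (2 genes) and -0.19 without, and -0.19 with YY1 letters (7 genes) and -0.18 without.

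Because the low arrays lay in opposite groups, the side to which the members leaned depended on which was included. Without leukemic replicate 4 the median difference was 0.083 and 49 of 71 members were higher, against 51.5% of features. Without control replicate 3 it was -0.047 and 26 of 71 members were higher, against 49.8% of features. Without leukemic replicate 4, 6 of 71 members had an unadjusted limma p under 0.05, no larger a share than the 8.45% of features. All 6 were higher (Ndufb10, Ndufs5-ps, Ndufs7, Ndufv3, Cox5b and Atp5d). Without control replicate 3, there were 3 of 71, a smaller share than the 7.78% of features, all lower (Ndufa1, Ndufa2 and Cox6c). Neither count is therefore a result about these genes. No member passed the rank product or the limma threshold in either case.

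Leukemic replicate 4 also stood apart over the whole array. Its correlation with the other arrays was 0.955 to 0.970, against 0.984 to 0.995 among the other 7, while the probes detected (13504 to 13938) and the median signal (67.2 to 90.2) gave no such separation. Of 18 B cell markers, 16 were on the array, and control arrays detected 7 to 8 of them and leukemic arrays 7 to 11. The normalized signal summed over all 16, undetected ones included, was 875 to 1023 on control arrays. On leukemic arrays it was 1247 to 7042, the highest being leukemic replicate 4. The rank product called 5 of the 7 tested B cell markers higher, against 0.291% of all features, and limma called 0. Ms4a1, Pax5 and Spib, which define B cells, were not detected on any array, nor were Ptprc and Lcp1 of 7 pan-leukocyte markers. The 4 tested pan-leukocyte markers had higher leukemic means, with 1, Laptm5 (1.23), called by the rank product. The signal summed over all 7, undetected ones included, was 3853 to 4170 on control arrays and 3348 to 7344 on leukemic arrays. Arhgdib (difference 0.04) was by far the brightest of the tested ones, at 11.74 to 11.89 in log2 on control arrays. Of 3 tested myeloid markers 2, Lyz1 (1.07) and Lyz2 (1.11), were called higher, while Adgre1, Itgam, S100a8 and S100a9 were not detected on any array. Sums over the 7 myeloid markers on the array were 879 to 1196 on control and 1137 to 2993 on leukemic arrays. The pan-leukocyte and myeloid sums were highest on leukemic replicate 4, and limma called 0 of these markers. On control replicate 3 the B cell sum (953) lay inside the control range. The part of RNA from B cells or other leukocytes in the values of the respiratory chain genes was not tested. Of 14 markers of fibroblasts and stroma, 12 were detected on all 8 arrays and Tlx1, a spleen stromal factor, on none.

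The other genes of the pathway were read from lists of known members. Beside the counts that follow, 49.4% of all features were lower and 7.58% had an unadjusted limma p under 0.05. The genes named at the ends of a list are named by rank only. Of 38 tested assembly factors, which build the complexes without being part of them, 15 were higher and 23 lower, 0 were called by the rank product or limma and 2 had an unadjusted limma p under 0.05 (median -0.03), with Surf1 (0.32) and Acad9 (-0.37) at the ends. Of 5 nuclear subunits outside the symbol rule, 1 was higher and 4 lower, 0 called by either test and 0 at an unadjusted limma p under 0.05, from -0.23 for Ndufab1, the acyl carrier protein of complex I, to 0.12 for Higd2a. Of the 71 tested mitochondrial ribosomal protein genes, 41 were higher and 30 lower, 0 called by either test and 0 at an unadjusted limma p under 0.05 (median 0.047). On the arrays these ribosomal genes stood at -0.07 on control replicate 3 and -0.29 on leukemic replicate 4, and 50 of 71 followed the respiratory chain mean with r over 0.5.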

How the data were processed

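Sorted mSSC stroma co-cultured with control or leukemic B cells was measured on 4 arrays each, all on 1 Illumina bead chip. The deposited table holds the average bead signal, an intensity without normalization, and a detection p-value for each of 25697 probes and 8 arrays. The authors also deposited log2 values normalized with lumi, which were used as an alternative and whose background setting is not given in the sources used here. The precision is limited by the number of arrays. Here signals were background-corrected, offset by 16 and quantile normalized with neqc in limma 3.58.1 (R 4.3.3). Probes with detection p under 0.05 on at least 4 arrays (13732) were kept, and the brightest probe stood for each gene, leaving 9971 features. Of all probes, 23978 had 1 gene symbol and 1719 none. The authors' methods name the rank product with a q of 0.05, and it was rewritten here in Python 3.11.15 (16 leukemic-control array pairs, 100 permutations). limma with an intensity trend gave differences, SEs and adjusted p-values over all features, and exact permutation tests used all 70 assignments of arrays. Scripts were tested on simulated data. Genes named are those past a threshold, the 3 highest and 3 lowest differences of complexes I, III, IV and V, all of complex II, core and catalytic subunits, isoforms, and the extremes of each list. The genes and lists were chosen with earlier results of these data known. Alternatives covered normalization, background, scaling, filter, probe choice, the replicate number as a block, array weights and leaving out each array.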

Additional observations from a re-analysis of the deposited data

Results flagged for a closer look

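In each group of 4 arrays, 1 array was set apart when its gap to the nearest other array took up nearly the whole range of the group. This was examined in 98 groups (43 genes, the 5 complexes and all members together, in control and in leukemic arrays) and found 12. Chance flags about 1 in 20 of independent groups. Many of these genes were chosen by their differences in these data and vary together, so the 12 cannot be judged against that rate. The gap is given as a share of the group's range, and levels are log2.

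Control replicate 3 was lowest for the mean of complex III (gap 0.850, deviation -0.13 against 0.04 to 0.07), for Uqcrb (0.927, 10.79 against 11.27 to 11.31) and for Cox8a (0.919, 13.93 against 14.25 to 14.28). Control replicate 4 was highest for Ndufb11 (0.893, 7.73 against 7.55 to 7.57), Sdhd (0.874, 8.74 against 8.07 to 8.15) and Cox5b (0.929, 13.98 against 13.71 to 13.73). Control replicate 1 was highest for Cox5a (0.911, 13.81 against 13.59 to 13.61).

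Leukemic replicate 4 was lowest for Uqcr11 (0.863, 13.11 against 13.43 to 13.48) and Atp5d (0.872, 12.49 against 13.06 to 13.14). Leukemic replicate 1 was lowest for Uqcrc2 (0.842, 12.59 against 12.84 to 12.89), Cox4i1 (0.848, 14.15 against 14.24 to 14.25) and Atp5e (0.831, 7.60 against 8.01 to 8.09).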

How the results depend on the processing

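No member was called by the rank product or limma under any alternative run. The median difference of all members was 0.013 to 0.089 under the other settings (0.089 with array weights) and -0.05 to 0.08 when single arrays were left out, and 22 to 45 members were then lower. Medians by complex changed sign under median centring for complex II (0.01), with every kept probe for complex III (0.01) and with array weights for complexes II (0.05), III (0.06) and V (0.09). The number of members higher without overlap was 2 with every kept probe (87 probes in place of 71) and 0 under the other settings run; the cause of the sign changes was not tested. The low mean of members on control replicate 3 (-0.22 to -0.16) and on leukemic replicate 4 (-0.24 to -0.15) held under 5 settings chosen after seeing the data. Counting members over 0.25 log2 under other settings was also chosen then. Of 43 named members, 0 to 7 changed sign per setting, most with array weights and without leukemic replicate 4 (7 each). Probes of 7 of the 12 members with several kept probes disagreed in sign.

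Over all features, 29 were called higher and 0 lower by the rank product; this became 14 and 5 with the authors' values, 56 and 8 without the detection filter, 52 and 0 with every kept probe, and 6 to 40 and 0 to 12 when single arrays were left out (6 and 0 without leukemic replicate 4). Same-numbered arrays deviated together with r of 0.25, 0.30, 0.19 and 0.03. Of the 4 control arrays, 3 correlated best with their own number, a hint from the data. For control replicate 3 this was a near tie, with r of 0.194 both with its own number and with another. The last r was too low to take the numbers as pairs. With the replicate block 43 features were called higher and 18 lower, 0 of them members, and the median difference of members stayed 0.025. With 4 arrays a group, signal limits the dimmest genes most, such as Cox6b2 and Cox7a1.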

Other observations

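Genes that feed the chain were also read from lists. Of 14 tested genes of the TCA cycle and pyruvate dehydrogenase, 3 were higher and 11 lower (49.4% of all features were lower), 0 were called by the rank product or limma, and 2 had an unadjusted limma p under 0.05 (7.58% of all features). Their median was -0.13, and -0.08 without leukemic replicate 4. Pdhb, the beta subunit of pyruvate dehydrogenase E1, was lowest at -0.36 (limma adjusted p = 0.639) and Idh3a, of isocitrate dehydrogenase, highest at 0.10. Of 6 genes of cytochrome c and mitochondrial carriers, 2 were higher and 4 lower (median -0.15, 0 called by either test, 1 at an unadjusted limma p under 0.05), from -0.29 for Vdac3, an outer membrane channel, to 0.12 for Cycs, cytochrome c.

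Of 13 tested regulators of mitochondrial biogenesis, 5 were higher and 8 lower, against 49.4% of all features lower (median -0.12, 0 called by either test). An unadjusted limma p under 0.05 was found for 1 of the 13, against 7.58% of all features. Tfam, which packages and transcribes mitochondrial DNA, was lowest at -0.27 and Ppargc1a, a coactivator of these genes, highest at 0.23 (SE 0.26). Mean deviations of these regulators and of the TCA list on control replicate 3 were 0.07 and 0.06, above their own means, where the respiratory chain genes lay at -0.19. On leukemic replicate 4 the regulators and the TCA list were low, at -0.10 and -0.12, as were the respiratory chain genes at -0.16.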
